A study of Arabidopsis thaliana with 6 samples.

Results

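Leaf mRNA was compared gene by gene between 2 Arabidopsis thaliana mutants, nrpe1 and the idn2 idnl1 idnl2 triple mutant, over all 32947 genes listed in their files, with the wild-type (WT) values beside them. The members are thus every gene of the series in 2 of its 6 libraries, and none was chosen by its values. The nrpe1 plants carried the allele nrpe1-11, and the triple mutant the alleles idn2-1, idnl1-1 and idnl2-1. WT was ecotype Columbia-0, and the mutants are labelled with that ecotype too. The other libraries used beside them were an idn2-1 single mutant and an idnl1-1 idnl2-1 double mutant. All were leaves of 3 weeks from plants in constant light, prepared with the Illumina TruSeq mRNA protocol. WT had 2 libraries and each mutant genotype 1, and the labels do not say how many plants went into a library.

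RNA-directed DNA methylation keeps transposons and some genes silent in plants. RNA polymerase V, whose largest subunit is NRPE1, makes transcripts at the target loci, and small RNAs bound to an Argonaute protein pair with them to bring a DNA methyltransferase. IDN2 is an RNA-binding protein of this pathway that works after polymerase V, in a complex with its relatives IDNL1 and IDNL2 (also called FDM1 and FDM2). The comparison asks how leaf mRNA differs between loss of the polymerase and loss of these IDN2-type proteins.

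The libraries were of like depth, 3078153 reads in nrpe1 and 2793873 in the triple mutant, and WT replicate 1 had 2737943. WT replicate 2 was deeper, with 5975802 reads. Levels are in RPKM, a read number scaled to the gene's length and the library's total. They hold 1 added read in every gene, so a gene with 0 reads still has a small RPKM. Reads are given without that added read. In a gene of 2 kb, 1 read was worth 0.161 RPKM in nrpe1 and 0.177 in the triple mutant. The 15 leaf mesophyll markers, among them the Rubisco small subunits and light-harvesting proteins, held 5460 RPM (reads scaled to the library total) in nrpe1 and 5660 in the triple mutant, with 5760 and 3080 in WT, and 0 of them differed by the rule below. Reads of such abundant genes did not rise in step with depth. LHCB3 had 1391 reads in WT replicate 1 and 1593 in the deeper replicate 2. The highest RPKM of any gene was 502 in WT replicate 1 and 259 in replicate 2. The cause was not tested. The 3080 is thus not read as less mesophyll, and like levels of these markers are a weak check of tissue.

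A gene was called where log2(RPKM + 1) differed by at least 1 (a fold of 2) and the exact 95% binomial interval of the ratio of its reads, scaled to library totals, left out 1. With 1 library a genotype there is no replicate check, and this rule gives no p-value. The interval covers counting error only and compares these 2 libraries, not the genotypes. Tested were 22362 genes that reached 1 RPKM in any of the 6 libraries. Of them 2139 had 0 reads in both mutants and could not be called between them, and they count in every share of tested genes. Among the tested genes 769 differed (3.44%), 425 lower in nrpe1 (1.90%) and 344 higher (1.54%). The same rule called 139 genes between the WT libraries (0.622%), 328 between nrpe1 and idn2 (1.47%) and 353 between the triple mutant and idn2 (1.58%). Across tested genes the median difference, nrpe1 minus triple mutant, was 0.02.

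**Figure D1:**
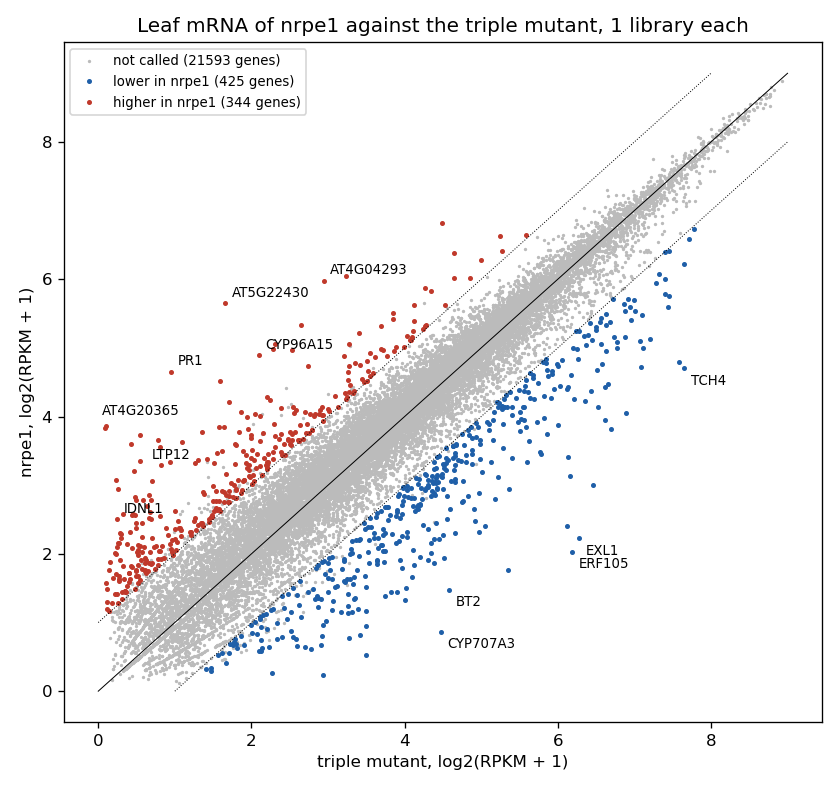
Level of each of the 22362 tested genes in the triple mutant (horizontal axis) and in nrpe1 (vertical axis), both as log2(RPKM + 1). Blue points are the 425 genes lower in nrpe1 and red points the 344 higher, the solid line marks equal levels and the dotted lines a difference of 1. Blue points lie mostly at middle and high levels, while many red points lie near 0 in the triple mutant.

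Of the 4 genes mutated in these plants, IDNL1 was the 1 that differed by the rule. IDNL1 (AT1G15910, chromosome 1, 5465330 to 5469119 in TAIR8) had 4.67 RPKM in nrpe1, 0.187 in the triple mutant, and 4.86 and 6.37 in WT. These levels rest on 54 reads in nrpe1 against 1 in the triple mutant, a ratio of 49.0 (8.43 to 1970). The nrpe1 library thus stood with WT, and the triple mutant with the double mutant, which had 0.316 RPKM. IDNL2 (AT4G00380, chromosome 4, 167959 to 170974) had 18 reads against 5, a ratio of 3.27 (1.17 to 11.3), with 14 and 46 in WT; the difference of 0.83 stayed under the fold of 2. NRPE1 (AT2G40030, chromosome 2, 16721572 to 16730661) gave more reads in the library labelled nrpe1 than in the triple mutant, 138 against 64, and 53 and 202 in WT. IDN2 (AT3G48670, chromosome 3, 18041766 to 18045050) had 15.8 and 14.8 RPKM, and 18.0 and 17.1 in WT. Counts over a whole gene span do not check a mutation that leaves the transcript, so the label nrpe1 is taken as given.

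The 14 largest differences downward included the transcription factors ERF105, ERF104 and DREB26, the touch gene TCH4 and the sugar-related EXL1, all with both WT libraries nearer to the triple mutant than to nrpe1. ERF105 (AT5G51190, chromosome 5, 20817810 to 20818642), a transcription factor of the ethylene response factor family, had 3.09 RPKM in nrpe1, 71.9 in the triple mutant, and 56.4 and 56.6 in WT. Its difference was -4.15, and the triple mutant held 26.4 times the reads of nrpe1 (interval 12.6 to 66.8). The triple mutant and WT lay close together here and nrpe1 far below all 3. EXL1 (AT1G35140, also PHI-1), a gene of the carbon-starvation response, had 3.69 RPKM in nrpe1, 76.6 in the triple mutant, and 97.0 and 95.9 in WT. ERF104, a close relative of ERF105, had 4.31, 68.8, 61.9 and 66.6 RPKM in the same order. CYP707A3, an enzyme that breaks down abscisic acid, had 0.821 RPKM in nrpe1 against 21.2 in the triple mutant, and 18.9 and 21.0 in WT.

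BT2, a BTB and TAZ domain protein, showed an intermediate level in the triple mutant. It had 1.79 RPKM in nrpe1, 22.9 in the triple mutant, and 56.3 and 55.6 in WT, so that both mutants lay below WT and nrpe1 lowest. DREB26 had 7.74, 70.6, 102 and 94.7 RPKM in that order. AT1G33760, of the same AP2 domain family, had 0 reads in nrpe1 and 20 in the triple mutant, at least 7.35-fold higher against a floor of 3 counts per library, with 37 and 114 reads in WT. The mitochondrial carrier DIC2 had 7.02 RPKM against 87.0. TCH4, a cell wall enzyme induced by touch, had 25.1 RPKM against 200, and 206 and 157 in WT. SZF1, a zinc finger protein of the salt response, had 13.1 against 103. AT1G80440 (an F-box protein of the KISS ME DEADLY family), AT4G27280 (a calcium-binding EF-hand protein) and AT1G07135 (a glycine-rich protein) differed by -2.84, -2.80 and -2.72. In AT3G09870, a gene of the SAUR family of auxin-responsive genes, the triple mutant stood above WT as well, with 39.8 RPKM against 11.5 and 18.7 in WT and 2.41 in nrpe1.

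Of the 16 tested genes of the rapid stress and touch list, 15 were called lower in nrpe1 than in the triple mutant and 0 higher, where 1.90% of all tested genes were lower. The median difference of the list was -1.64, beside 0.02 over all tested genes. Members of this and the later lists were chosen with earlier results of these data known. Their counts and medians therefore describe picked genes and are no independent check. In 15 of the 16 both WT libraries lay nearer to the triple mutant than to nrpe1. The zinc finger repressors ZAT12 and ZAT10 differed by -2.36 and -2.12, ZAT6 by -1.62 and AZF2 by -1.29. ZAT10 had 12.4 RPKM in nrpe1, 57.3 in the triple mutant, and 50 and 58.6 in WT. ZAT6 was the 1 gene of the list with the WT libraries apart, at 9.62 and 18.6 RPKM, between 7.25 in nrpe1 and 24.3 in the triple mutant.

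The WRKY transcription factors of the list, which act in defence, were all called. WRKY18 differed by -1.94, WRKY33 by -1.80, WRKY40 by -1.76, WRKY53 by -1.38 and WRKY46 by -1.07. WRKY33 had 14.2 RPKM in nrpe1, 51.9 in the triple mutant, and 42.6 and 50.6 in WT. The calmodulin-like genes CML38, TCH2 and CML37 differed by -1.66, -1.61 and -1.47, and CZF1, the closest relative of SZF1, by -1.12. CML38 and CML37 rest on few reads, 4 against 18 and 3 against 13. TCH3, another calmodulin-like gene, had 42.7 RPKM in nrpe1 and 79.6 in the triple mutant, a difference of -0.89 that missed the fold of 2. In the idn2 single mutant 15 of the 16 genes lay below both WT libraries, and all 16 below the triple mutant. ZAT12, WRKY18 and WRKY53 had 4.21, 5.62 and 11.3 RPKM in idn2, near the 3.94, 5.28 and 11.2 of nrpe1. TCH4 was less low in idn2 than in nrpe1, with 49.7 RPKM, and ZAT6, with 11.2, was above WT replicate 1.

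The median difference of 11 tested ethylene response factors was -1.3. Of them 8 were called lower in nrpe1 and 0 higher, where 1.90% and 1.54% of all tested genes were. Beside ERF105, ERF104 and DREB26 these were ERF5 (-2.43), ERF6 (-2.17), ERF13 (-1.3), ERF11 (-1.29) and ERF1A (-1.09). ERF5 had 2.16 RPKM in nrpe1, 16.1 in the triple mutant, and 14.3 and 18.9 in WT. ERF2 had 13.7 and 20.2 RPKM, and RRTF1 3.95 and 3.83. ERF4, a repressor of the family, stood on the other side with 51.6 and 40.0 RPKM. The family was therefore not uniform.

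Of 11 tested heat shock genes, 8 were called lower in nrpe1 and 0 higher, where 1.90% and 1.54% of all tested genes were. The median of the 11 was -1.34. The list holds heat shock factors, which switch on chaperone genes, and the chaperones themselves. HSFA2 had 6.19 RPKM in nrpe1, 27.5 in the triple mutant, and 12.2 and 14.5 in WT, so the triple mutant was above WT and nrpe1 below it. HSFA7A, HSFB2A and HSFB1 differed by -1.61, -1.41 and -1.06. Among the chaperones HSP70 had 20.1 and 68.5 RPKM (-1.72), HSP90.1 8.79 and 24.4 (-1.37), and HSP101 7.77 and 21.2 (-1.34). MBF1C, a coactivator of the heat response, lay at the threshold, with 36.8 and 74.8 RPKM. The small heat shock protein genes HSP18.2 and HSP17.6II were not called, with 38 and 35, and 14 and 7 reads. HSP21 had 0 reads in both mutants and was not tested.

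**Figure D2:**
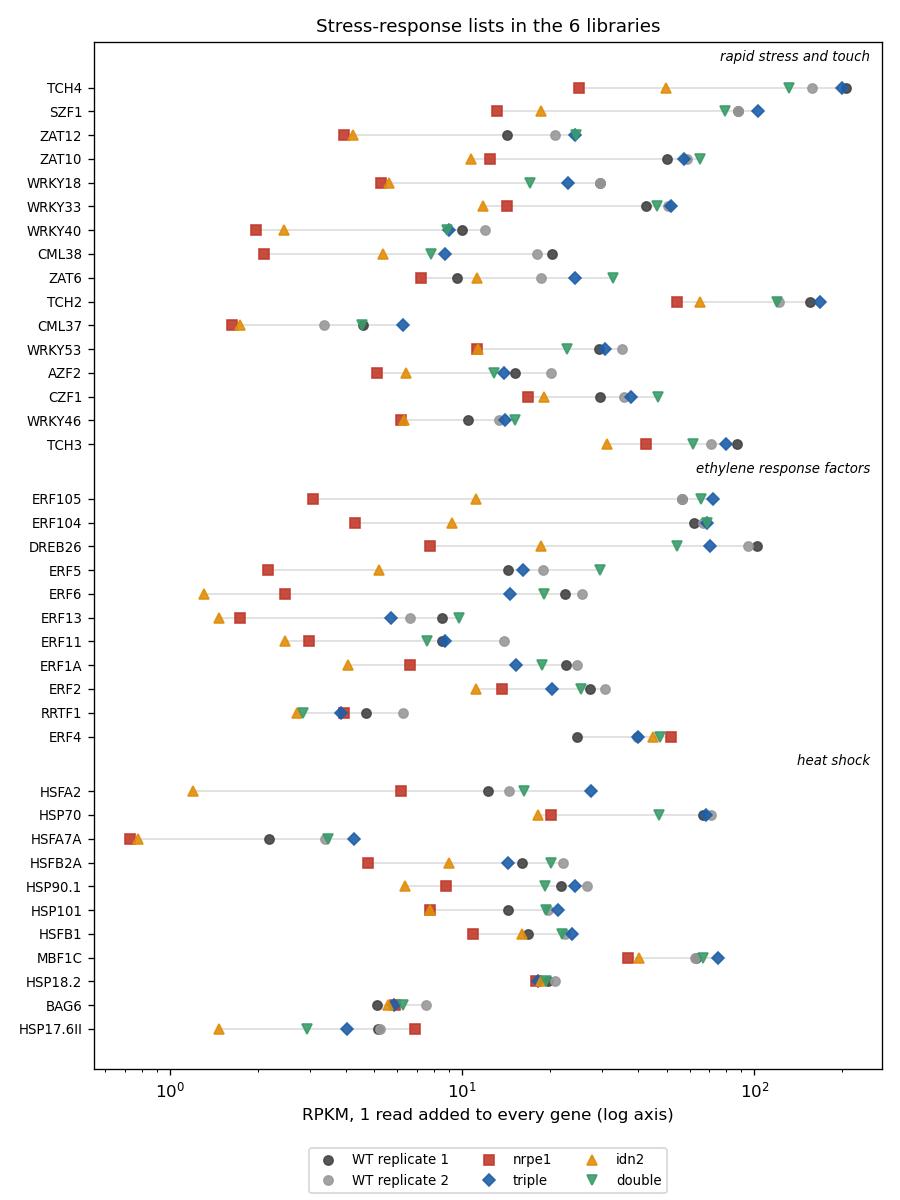
RPKM (log axis, with 1 read added to every gene) of the tested genes of the rapid stress and touch, ethylene response factor and heat shock lists in each of the 6 libraries, 1 marker a library. In most rows the nrpe1 square and the idn2 triangle lie to the left, and the triple mutant diamond lies among the WT and double mutant markers; ERF4, HSP17.6II, HSP18.2, BAG6 and RRTF1 do not follow this order.

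The promoters of the genes lower in nrpe1 were searched for letters of known stress motifs, from 250 bases before to 50 after the gene start in the RefSeq annotation of TAIR10.1, matched by gene ID. The W-box, the motif of WRKY proteins, was searched on both strands as TTGACC, or with T in place of the last C as TTGACT. At least 1 of these stood in 42.5% of the 416 promoters of protein-coding genes lower in nrpe1, in 25.5% of the 298 of genes higher, and in 32.2% of the 20157 promoters of tested protein-coding genes. Letters of the CGCG box, bound by calmodulin-binding CAMTA factors, were searched as ACGCGT, then as CCGCGT, and then as CGCGTT, forms that overlap each other. The last was added after the values were seen. One or more stood in 13.7%, 4.03% and 5.97% of the same promoters. GCCGCC, the core of the box bound by ethylene response factors, stood in 2.88% of promoters of genes lower in nrpe1 and in 2.59% of all. The abscisic acid motif form ACGTGG stood in 16.6% and 10.8%, the G-box CACGTG in 12.5% and 8.75%, TATCCA, found in sugar-starvation promoters, in 18.5% and 16.7%, and AATATCT, the core of the clock's evening element, in 15.4% and 11.8%. The stress lists were not alike in these motifs. A W-box form stood in 9 of 16 rapid stress promoters, 6 of 11 of ethylene response factors and 1 of 11 of heat shock genes. A CGCG form stood in 2, 0 and 1 of them. A match is a run of letters and not a shown binding site.

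Promoters of 2 genes of the rapid stress list with several W-box matches are shown with those matches in capitals, 5′ to 3′ on the gene's strand. They lie in TAIR10.1 at chr3:20775970-20776269 (plus strand, SZF1) and chr2:16107985-16108284 (plus, WRKY33).
SZF1: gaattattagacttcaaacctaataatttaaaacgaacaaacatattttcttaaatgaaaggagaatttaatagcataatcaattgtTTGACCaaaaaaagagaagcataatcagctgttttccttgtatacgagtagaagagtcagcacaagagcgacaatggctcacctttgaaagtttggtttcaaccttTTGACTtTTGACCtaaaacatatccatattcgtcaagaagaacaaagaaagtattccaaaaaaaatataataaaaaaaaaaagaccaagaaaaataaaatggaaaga
WRKY33: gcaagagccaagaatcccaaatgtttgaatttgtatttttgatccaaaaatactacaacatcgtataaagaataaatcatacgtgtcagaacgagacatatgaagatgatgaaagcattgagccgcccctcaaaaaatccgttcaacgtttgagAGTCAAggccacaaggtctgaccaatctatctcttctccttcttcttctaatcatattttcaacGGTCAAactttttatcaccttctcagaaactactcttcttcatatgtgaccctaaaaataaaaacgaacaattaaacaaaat
SZF1, which differed by -2.87, holds both forms 1 base apart, downstream of the middle of the window, and a further match upstream. In WRKY33 both matches are on the other strand.

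The 2 promoters of genes lower in nrpe1 with the most CGCG matches belong to TCH2 (chr5:14999570-14999869, minus strand) and EXLA3 (chr3:16892452-16892751, plus strand), an expansin-like gene. Capitals mark the CGCG forms. Overlapping forms were counted separately, so the 6 matches in TCH2 and 4 in EXLA3 lie in 2 stretches each.
TCH2: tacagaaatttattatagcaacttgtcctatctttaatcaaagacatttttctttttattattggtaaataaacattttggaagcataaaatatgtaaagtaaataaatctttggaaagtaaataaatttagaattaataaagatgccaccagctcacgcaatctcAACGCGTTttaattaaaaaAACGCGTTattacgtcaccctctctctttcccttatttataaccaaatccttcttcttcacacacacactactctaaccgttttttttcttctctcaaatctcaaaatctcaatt
EXLA3: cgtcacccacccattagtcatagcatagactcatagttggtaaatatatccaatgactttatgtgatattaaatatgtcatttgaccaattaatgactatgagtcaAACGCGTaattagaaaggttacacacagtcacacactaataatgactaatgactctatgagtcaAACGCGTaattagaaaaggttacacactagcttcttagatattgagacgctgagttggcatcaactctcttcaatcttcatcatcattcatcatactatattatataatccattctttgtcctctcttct
TCH2 had 54.2 RPKM in nrpe1, 168 in the triple mutant, and 155 and 121 in WT, and EXLA3 had 1.12, 5.26, 4.42 and 5.38.

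Sugar-starvation genes went both ways, with 3 of 15 tested called lower in nrpe1 and 2 higher. The shares over all tested genes were 1.90% and 1.54%, and the median of the list was 0.10. The lower genes were EXL1, BT2 and TPS8, a trehalose-phosphate synthase family gene that had 209 reads in nrpe1, 400 in the triple mutant, and 791 and 1738 in WT. BCAT2, of branched amino acid breakdown, differed by 1.24 and MIOX2, an inositol oxygenase, by 1.19, both on low levels of 3.10 and 2.22 RPKM in nrpe1. STP1, a sugar transporter, was alike in both mutants, with 27.8 and 27.0 RPKM against 62.1 and 63.1 in WT. The mutants thus shared a level below WT at STP1 and parted at EXL1.

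Of 10 tested XTH genes, which code for cell wall enzymes, 4 were lower in nrpe1, beside 1.90% of all tested genes. The median over the list was -0.67. The 4 lower genes were TCH4, XTH19 (-2.16), XTH23 (-1.07) and XTH17 (-1.03). XTH4, XTH9 and XTH24, the abundant ones, had 112, 145 and 85.9 RPKM in nrpe1 and 119, 127 and 84.1 in the triple mutant. Among 17 jasmonate genes (median -0.34), JAZ1, a repressor of the jasmonate response, was lower in nrpe1 (-1.20) and VSP1, a storage protein, higher (1.28). VSP1 had 76.9 RPKM in nrpe1 and 31.1 in the triple mutant, and 70.8 and 63.2 in WT, so that nrpe1 was with WT and the triple mutant below.

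Of 12 clock genes (median -0.00), 2 were lower in nrpe1, beside 1.90% of all tested genes. The 2 were the morning genes RVE8 and CCA1, with differences of -1.33 and -1.06. CCA1 had 40.3 RPKM in nrpe1, 85.0 in the triple mutant, and 84.7 and 74.1 in WT. LHY, its close relative, had 22.6 and 36.2 RPKM, and GI 17.0 and 33.2, both under the fold of 2. Among 17 cold and abscisic acid genes (median -0.31), CYP707A3 was lower, and CBF3, a cold regulator, and PYL6, an abscisic acid receptor, were higher, by 1.60 and 1.37. CBF3 had 13.8 RPKM in nrpe1, 3.90 in the triple mutant, and 1.59 and 2.57 in WT.

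At the genes that differed, WT lay mostly with the triple mutant where nrpe1 was lower, and less clearly where nrpe1 was higher. Of the 425 genes lower in nrpe1, both WT libraries were on the triple mutant's side of the midpoint between the mutants in 385 (90.6%) and on the side of nrpe1 in 13 (3.06%). Of the 344 genes higher in nrpe1, 156 (45.3%) had WT with the triple mutant, 88 (25.6%) had it with nrpe1, and in 100 (29.1%) the WT libraries were on different sides. Over all tested genes the shares were 34.2%, 22.5% and 43.3%. For the genes higher in nrpe1 the share with the triple mutant was 69.5% by WT replicate 1 alone, and the share with nrpe1 was 49.7% by the deeper replicate 2 alone. Depth and library cannot be told apart in that difference.

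The called genes were also read in pairs of libraries that share none with the comparison and are of like depth. In idn2 minus WT replicate 1, the 425 genes lower in nrpe1 had a median of -0.70 (quartiles -1.41 and -0.23), against -0.01 over all tested genes. Of them 170 (40.0%) were at least 2-fold lower in idn2, where 1.86% of all tested genes were. The genes low in nrpe1 were thus often low in idn2, although the triple mutant carries the same idn2-1 allele. The 344 genes higher in nrpe1 had a median of 0.10 in that pair, with 29 (8.43%) at least 2-fold higher and 15 (4.36%) lower, where the shares of all tested genes were 0.850% and 1.86%. In the double mutant minus WT replicate 2 the median was -0.14 for the genes lower in nrpe1 and -0.03 for those higher. Over all tested genes it was 0.01. At least 2-fold lower there were 27 of the lower genes (6.35%) and 23 of the higher (6.69%), against 0.778% of all tested genes. At least 2-fold higher were 7 of each (1.65% and 2.03%), against 0.335%. Read against WT replicate 1 the double mutant medians were 0.01 and 0.06, with 0.12 over all tested genes. The idn2 median at the higher genes was -0.01 against WT replicate 2, with -0.12 over all.

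**Figure D3:**
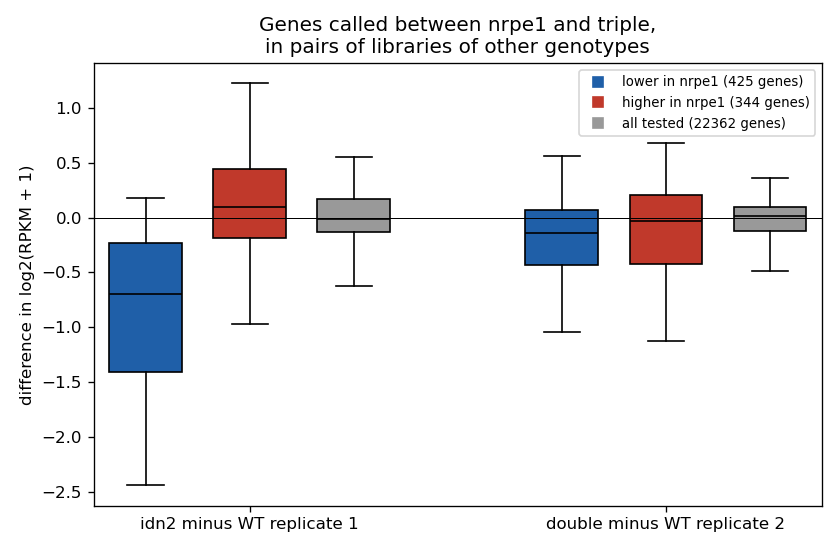
Difference in log2(RPKM + 1) in idn2 minus WT replicate 1 (left) and in the double mutant minus WT replicate 2 (right) for the genes lower in nrpe1 than in the triple mutant, those higher, and all tested genes. Boxes span the quartiles with the median as a line, and whiskers the 5th to 95th percentiles; the box of the 425 lower genes in idn2 lies below 0, with a median of -0.70.

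Genes higher in nrpe1 were of low level, with a median of 7.81 RPKM in nrpe1 and 2.12 in the triple mutant, where 71 of the 344 had 0 reads. Those lower in nrpe1 had medians of 6.32 and 19.9 RPKM. In the lowest decile of tested genes by level 78 were higher and 5 lower, and in the highest decile 2 and 57. Anther and floral organ genes were among the higher ones. The 5 anther markers together had 99 reads in nrpe1 and 0 in the triple mutant, and 1, 7, 0 and 1 in WT replicates 1 and 2, idn2 and the double mutant. All 5 had reads in nrpe1 and 4 were called, LTP12, a lipid transfer protein (34 reads), GRP19 (23) and GRP17 (18), which coat pollen, and ATA7 (14). MS2, of pollen wall synthesis, had 10 reads and 0. Of the 7 floral organ markers 5 were called higher, beside 1.54% of all tested genes. The 5 were AP1, AP3, PI, SEP2 and SEP3, and AG and SEP1 were not called. The 7 together held 58.8 RPM in nrpe1 and 19.7 in the triple mutant, with 18.7 to 39.3 in the other 4 libraries. LTP12 and GRP19 were put in the list knowing that they were high in nrpe1, and they hold 34 and 23 of the 99 reads. All 5 anther markers reached 1 RPKM in nrpe1 alone, so they passed the filter only through that library. Their sum and calls are therefore no independent check. The part of flower tissue in the genes higher in nrpe1 was not tested, and in bulk leaves more cells of a type and more RNA per cell cannot be told apart.

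The largest difference upward was in AT5G22430 (chromosome 5, 7433793 to 7434938), which codes for a protein of the pollen Ole e 1 allergen and extensin family. It had 49.1 RPKM in nrpe1, 2.16 in the triple mutant, and 23.6 and 25.6 in WT, a read ratio of 26.3 (11.9 to 72.7). WT thus lay nearer to nrpe1, and the double mutant (1.64) beside the triple. The pseudogene-class loci AT1G53810 and AT4G20365 had 192 and 218 reads in nrpe1 and 0 in the triple mutant, at least 58.1-fold and 66.0-fold higher against a floor of 3 counts per library. WT had 2 and 1 reads at AT1G53810 and 0 in both libraries at AT4G20365, and idn2 and the double mutant had 0 at both loci, so the nrpe1 library stood alone. AT4G04293, of the same class, had 62.0 RPKM against 6.69, and 7.5 and 11.6 in WT, and the ribosomal protein pseudogene RSU1 had 11 reads against 0. Reads of repeated or copied genes may be shared between copies, so levels of these loci are uncertain.

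Protein-coding genes made up most others of the largest differences upward. CYP96A15, an enzyme of cuticular wax synthesis, had 28.6 RPKM in nrpe1, 3.28 in the triple mutant, and 4.59 and 5.87 in WT. AT1G33840 (53 reads against 2), AT1G47980 (46 against 0), a desiccation-like protein, and AT1G66850 (15 against 0), of the lipid transfer family, had 1 and 1, 0 and 0, and 2 and 5 reads in WT. RXF26, annotated as a GDSL lipase and an anther-specific proline-rich protein, and AT2G42990, another GDSL lipase, differed by 3.19 and 2.81. The snoRNA gene AT3G47348 had 16 reads against 1, with 1 and 13 in WT.

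Among loci of the pseudogene classes, which in this annotation hold transposable element genes too, 21 of 540 tested were higher in nrpe1 (3.89%) and 3 lower (0.556%), beside 1.54% and 1.90% of all tested genes. In 13 of the 21 WT was with the triple mutant and in 4 with nrpe1, and 10 of the 21 had 0 reads in the triple mutant. Both WT libraries had 0 reads at 5 of the 21. Such loci may have passed the filter of 1 RPKM through nrpe1 itself. Level was not matched in these shares. Of the 2237 tested genes in the lowest decile by level, of any class, 78 were higher and 5 lower. Of the 4 tested genes known to be silenced by DNA methylation, SDC and QQS were higher in nrpe1. SDC (AT2G17690), an F-box gene that is a standard reporter of lost methylation, had 9.40 RPKM in nrpe1, 1.68 in the triple mutant, and 2.0 and 2.63 in WT, with 36 reads against 5, a ratio of 6.54 (2.56 to 21.3). The triple mutant did not stand above WT there. QQS, a starch-related gene, had 11.1 and 2.44 RPKM, and 4.99 and 6.61 in WT, so that WT lay between the mutants. MRU1 had 47.9 and 30.5 RPKM, and FWA had 1 read and 0. MRD1, also a tested gene of this list, went the other way, with 7.3 RPKM in nrpe1 and 15.1 in the triple mutant. It had 0.482 and 0.111 RPKM in WT, and its difference of -0.958 missed the rule.

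Of 16 salicylic acid genes 4 were higher in nrpe1 and 1 lower, beside 1.54% and 1.90% of all tested genes. The median of the list was 0.17. PR1 (AT2G14610), the classical marker of this defence, had 24.1 RPKM in nrpe1, 0.932 in the triple mutant, and 2.85 and 3.07 in WT, on 56 reads against 1, a ratio of 50.8 (8.76 to 2040). The triple mutant was below WT and nrpe1 above, and idn2 was beside nrpe1 with 22.6 RPKM. NIMIN2, WRKY54 and PR2 differed by 2.19, 1.91 and 1.14. CBP60G, a regulator of salicylic acid synthesis, was lower in nrpe1, with 3.24 RPKM against 11.5, and 12.5 and 13.9 in WT. PAD3, the last enzyme of camalexin synthesis, was the 1 called gene of 14 in its list (median 0.02), with 27 reads against 2.

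**Figure D4:**
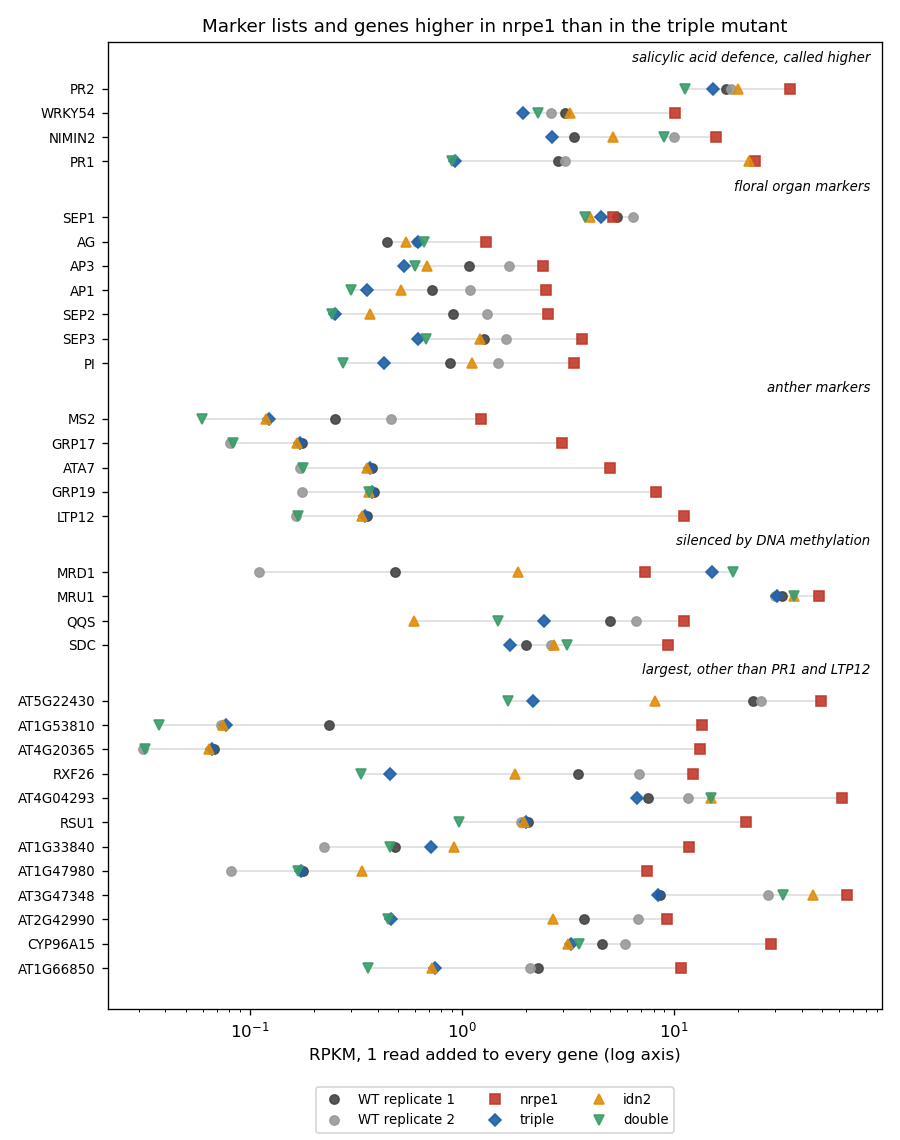
RPKM (log axis, with 1 read added to every gene) in each of the 6 libraries for salicylic acid genes called higher in nrpe1, floral organ and anther markers, genes silenced by DNA methylation and the largest differences upward. The nrpe1 square lies furthest right in all rows except MRD1 and SEP1, and for the anther markers the triple mutant diamond stands at the value of 0 reads plus 1.

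In 88 of the higher and 13 of the lower genes both WT libraries lay nearer to nrpe1 than to the triple mutant. The nrpe1 library could still be apart from WT, as at AT5G22430, with 49.1 RPKM against 23.6 and 25.6. The 88 higher genes were led by AT5G22430, RXF26 and AT2G42990. These had 174, 58 and 43 reads in nrpe1 and 6, 1 and 1 in the triple mutant. In the double mutant the same 3 genes had 1.64, 0.333 and 0.446 RPKM, close to the 2.16, 0.460 and 0.462 of the triple mutant, and in idn2 8.08, 1.78 and 2.68. Next were AT4G26290 and AT3G61900, a SAUR gene, with 8 and 12 reads against 0, and in these the double mutant (19.6 and 6.94 RPKM) was not low. Downward, with the triple mutant above both WT and nrpe1, came AT3G09590 (0 reads against 7), ERF53 (-1.71), a drought-induced factor, AT4G12490 (-1.55), AT3G22090 (0 against 5) and DIP2 (-1.27). AT4G12490, a lipid-transfer-like gene, had 7.37 RPKM in nrpe1, 7.36 and 10.4 in WT, 23.4 in the triple mutant and 28.9 in the double mutant.

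Few genes met a narrow rule for being alike in both mutants and apart from WT. With the mutants within 0.32 of each other in log2(RPKM + 1) and both at least 2-fold from both WT libraries, 4 genes were above WT (0.0179%) and 19 below (0.0850%). Both mutants are set against the same WT libraries here. For genes of few reads the window is narrower than counting error. CYP81F2, with 20 and 22 reads, had a ratio interval of 0.427 to 1.58. Genes below WT in both mutants by unlike amounts, such as BT2, TPS8 and ROS1, fall outside the window. The counts therefore do not give how many changes from WT the mutants share. Against WT replicate 2 alone the counts were 7 and 55, and against replicate 1 alone 22 and 36. The pseudogene-class locus AT5G35935 (chromosome 5, 14100618 to 14107121) had 4.45 RPKM in nrpe1, 4.68 in the triple mutant, and 0.222 and 0.0768 in WT, on 89, 85, 3 and 2 reads. Its ratio between the mutants was 0.950 (0.698 to 1.29), and idn2 and the double mutant were likewise high, at 4.85 and 6.86 RPKM. AT2G04460, of the same class, had 14.7 and 13.1 RPKM against 2.54 and 1.75 in WT, AT5G24240 3.01 and 3.09 against 0.450 and 0.519, and NAC003, a transcription factor, 11.2 and 10.6 against 1.97 and 3.99.

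Below WT in both mutants were PGL1, an enzyme of the pentose phosphate pathway, CYP81F2, of indole glucosinolate synthesis, AT4G17470, NAC046 and AT2G28120, a transporter of the major facilitator superfamily. PGL1 had 2.53 and 2.79 RPKM against 11.8 and 15.3 in WT. CYP81F2 had 3.35 and 4.03 against 12.3 and 14.1. NAC046, a senescence-related factor, had 0.894 and 0.787 against 3.61 and 3.89, on 4 and 3 reads.

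ROS1, MRD1 and HEI10 departed from WT in both mutants and further in the triple. The gene ROS1 (AT2G36490), on chromosome 2 from 15315100 to 15321351, codes for the main enzyme of active DNA demethylation, which is itself kept on by methylation of its promoter. It had 10.9 and 13.7 RPKM in WT, 2.52 in nrpe1 and 0.962 in the triple mutant. The 48 reads of nrpe1 against 16 give a ratio of 2.72 (1.52 to 5.14), and the difference of 0.84 on log2(RPKM + 1) missed the rule. MRD1 (AT1G53480, chromosome 1, 19966882 to 19968380) had 33 reads in nrpe1 and 63 in the triple mutant, a ratio of 0.475 (0.302 to 0.736), against 1 and 0 in WT. HEI10 (AT1G53490), a meiotic crossover gene whose span overlaps MRD1, had 52 and 81 reads, a ratio of 0.583 (0.403 to 0.836), against 5 and 19. For all 3 genes the interval left out 1 and the fold stayed under 2 on this scale. Reads in the stretch shared by MRD1 and HEI10 cannot be assigned to 1 of them, so their values are not separate results.

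**Figure D5:**
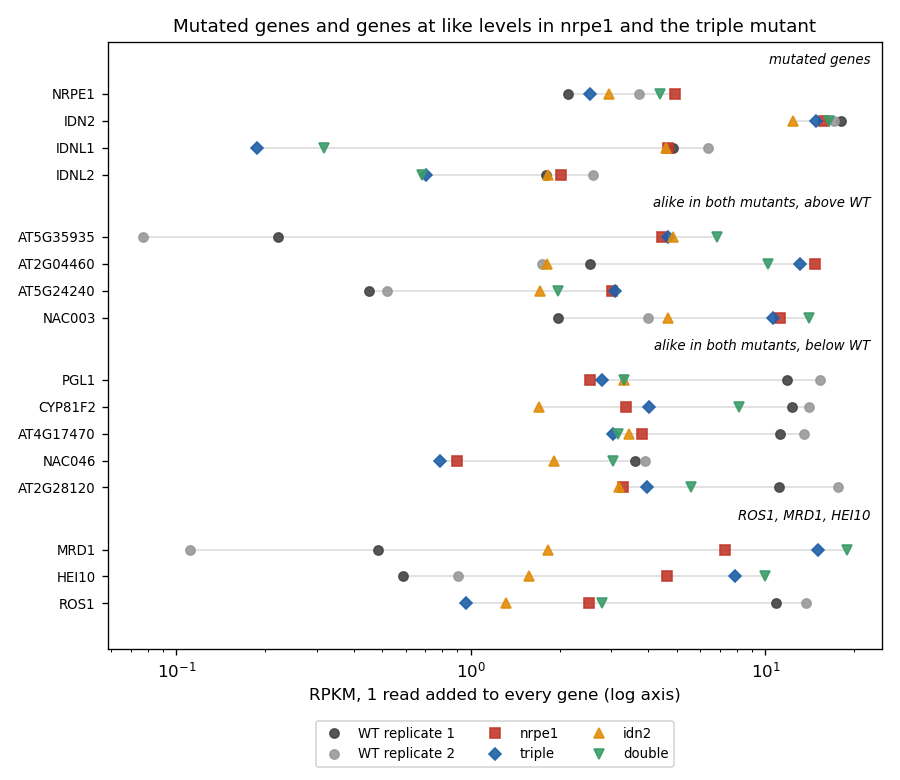
RPKM (log axis, with 1 read added to every gene) in each of the 6 libraries for the 4 mutated genes, the genes at like levels in nrpe1 and the triple mutant and apart from WT, and ROS1, MRD1 and HEI10. In the alike rows the nrpe1 square and the triple mutant diamond nearly coincide, while both WT circles lie apart.

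Genes of the pathway itself gave no calls, which for lists of this size is near the share over all tested genes. Of 23 tested RNA-directed DNA methylation genes 0 were called in either direction (median 0.15), beside 1.54% and 1.90% of all tested genes, and limma, with the spread of the WT pair, called 0 too. The largest difference was in FDM3, another relative of IDN2, with 8.56 RPKM in nrpe1, 4.97 in the triple mutant, and 6.68 and 8.0 in WT, followed by RDM1 with 53.4 and 35.4. AGO4, the main Argonaute of the pathway, had 10.8 and 8.51 RPKM, and the methyltransferase DRM2 6.80 and 5.84. Of 11 maintenance methylation genes 0 were called (median 0.07), and SUVH4, a histone methyltransferase, had 5.15 and 3.73 RPKM and VIM3 3.19 and 2.27. Of 5 demethylation genes 0 were called (median 0.24), and DML2 had 2.87 and 2.22. Lists of cell division (10 genes, median 0.22), anthocyanin and flavonoid synthesis (11 genes, median -0.54) and control genes (5 genes, median 0.05, but -0.01 with median-of-ratios scaling) also had 0 calls by both. CDKB1;1 and CYCB1;1 differed by 0.74 and 0.45, PAP1 and F3H by -0.76 and -0.73, TIP41 and UBQ10 by 0.28 and 0.27, and MYB28 of the glucosinolate list by 0.61.

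A limma fit that takes its spread from the WT pair called 317 genes lower in nrpe1 (1.42%) and 126 higher (0.563%) at an adjusted p under 0.05, and 374 of its 443 calls (1.98% of tested genes) were among the 769. Of the 81 called genes that the naming rule picks, which leaves out marker lists, 59 passed it. Of the 7 floral organ markers it called 0, where the fold and interval rule called 5, and of the 5 anther markers 4. It called only part of the tested rapid stress genes, ethylene response factors and heat shock genes, and SDC, QQS and PAD3 did not pass. The spans of WRKY33, WRKY40, WRKY53, BCAT2, HSP101, HSFB1, AT4G26290, PGL1, AT5G24240, F3H, MRD1 and HEI10 overlap another gene. Reads there cannot be assigned to 1 of the genes without strand.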

How the data were processed

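Per the file headers, the authors deposited 1 table of RPKM per library over TAIR8 gene models, and the submitters' processing notes name Bowtie without its version. How repeats, duplicates or strand were treated is not stated there. The deposited RPKM times the span from start to stop were whole multiples of 1 step in 100% of values (tolerance 1e-06), lowest multiple 1, read as 1 read added to each gene and taken off to give reads. File starts were taken as 0-based and shifted by 1, so a TAIR8 position may be 1 base off. TAIR10.1 (RefSeq) gave symbols and classes for 32377 of 32947 IDs, and the promoter sequences.

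Differences are in log2(RPKM + 1), nrpe1 minus triple mutant, which understates low genes. Library totals scaled read ratios, with exact (Clopper-Pearson) 95% binomial intervals. Median counts per tested gene were 70 reads in nrpe1 and 59 in the triple mutant, and 3757 tested genes had under 10 in both together. Groups came from the genotype labels. Named were the 14 largest called genes per direction, called list members (or the 2 largest), the 5 largest alike or with WT on the side of nrpe1, and genes of an earlier account. Further list members, and EXLA3 for its promoter, were named after their values were seen. Members and lists were chosen with earlier results of these data known. The limma fit had 1 residual degree of freedom, from WT, and an infinite prior, so each mutant library is assumed to vary as WT does; whether the WT libraries are separate plants is not stated. The tools were scipy 1.17.1, pandas 2.3.3 and numpy 2.4.6 in Python 3.11.15, limma 3.58.1 in R 4.3.3, and matplotlib 3.10.9, and the scripts were tested on simulated data. The alternatives tried were scaling, pseudocount, filter, fold, call rule, exon length, overlaps and leaving out a WT library. The sequence of 1 further promoter is not reported here.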

Additional observations from a re-analysis of the deposited data

How the results depend on the processing

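The 769 genes that differed became 313 with a pseudocount of 5 (82 higher and 231 lower in nrpe1), 1995 at a fold of 1.5 (1047 and 948), 121 at a fold of 4 (48 and 73) and 443 by limma (126 and 317). With median-of-ratios scaling limma called 1042 genes (342 and 700), and the cause was not tested. The share of calls that were higher in nrpe1 was 44.7%, and it was 28.4% by limma and 26.2% with a pseudocount of 5. Median-of-ratios scaling of the fold and interval rule gave 301 higher and 482 lower.

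Leaving out a WT library gave 50.3% to 69.5% of the higher genes with WT on the side of the triple mutant, and 30.5% to 49.7% with WT on the side of nrpe1. For the lower genes the same shares were 91.3% to 96.2% and 3.76% to 8.71%. Genes alike in both mutants numbered 7 to 22 above WT and 36 to 55 below it. With a pseudocount of 0.1 the higher genes had 37.1% and 32.7% on either side, and the alike genes numbered 10 and 42. At the lower genes the median of idn2 against WT replicate 2 was -0.883 and that of the double mutant against WT replicate 1 was 0.00569. Of the other recomputed values, 56 summary values stayed within 1.5 times or the WT spread, as did 400 single-gene and list values, and 20 single-gene and list values moved. Among the values so compared, 6 medians near 0 changed sign. At the higher genes idn2 went from 0.0962 to -0.0112 and the double mutant from -0.0258 to 0.0629 with the other WT library, and at the lower genes the double mutant changed sign as given. With median-of-ratios scaling the list medians of glucosinolate and control genes went from 0.0153 to -0.0509 and from 0.0547 to -0.0088, and with quantile normalization that of leaf mesophyll markers from -0.0501 to 0.00237. No single gene so recomputed changed direction.

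No paired analysis was possible because each mutant has 1 library and the groups share fewer than 2 replicate numbers. Depth limits genes of few reads: 3757 tested genes had under 10 reads in both mutants together.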

Other observations

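Markers of other organs and cells gave few reads in both mutants or like levels. Root markers together had 1 read in nrpe1 and 8 in the triple mutant, with 6 and 11 in WT. Seed markers had 3 and 6 reads, with 4 and 16 in WT. The 10 markers of stomata and trichomes had 185 and 192 RPM, with 170 and 221 in WT, and 0 of them differed by the rule. Among long noncoding RNA genes 6 of 159 tested were higher in nrpe1 (3.77%) and 3 lower (1.89%), beside 1.54% and 1.90% of all tested genes. Level was not matched in these shares.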
